A study of Mus musculus with 12 samples.

Results

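Urea and water cross kidney cell membranes through 2 families of channel proteins, the urea transporters of the Slc14 family and the aquaporins. The 10 genes described here, out of 50433 gene names present in both count tables, were taken by name: the urea transporters Slc14a1 and Slc14a2, the water channels Aqp1, Aqp2 and Aqp4, the anion-permeable Aqp6, the aquaglyceroporins Aqp3, Aqp7 and Aqp9, which also pass glycerol, and the intracellular Aqp11. All 10 were found in both tables. RNA was measured in renal tubular epithelial cells (TECs) and in blood neutrophils (PMNs) of wild-type mice, with 3 libraries in each of 4 groups, 24 hours after ischemia-reperfusion injury (IRI). Every mouse had IRI by clamping of the renal pedicles, and the series holds no sham group, so injury itself cannot be examined. The glutamine groups received glutamine, which the methods describe as the dipeptide alanyl-glutamine given intravenously, and the vehicle groups received saline. The methods name adult male C57BL/6J mice, and TECs were sorted from kidney suspensions as CD45-negative, Prominin-1-positive cells. The methods describe prominin-1 antibody as directed at proximal tubules, yet markers of the thick ascending limb and the collecting duct were also read in every TEC library, so the libraries are treated here as mixtures of segments. In such bulk samples fewer cells of a type and less RNA per cell cannot be told apart.

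The concentrating kidney uses these genes in series. Aqp1 carries water across the proximal tubule, the descending thin limb and the vasa recta, while Aqp2, on the apical side, and Aqp3 and Aqp4, on the basolateral side, let water through the principal cells of the collecting duct under the control of vasopressin. Slc14a2 encodes the UT-A urea transporters of the inner medullary collecting duct and the thin limb, and Slc14a1 encodes UT-B of the descending vasa recta and of red blood cells; together they keep urea in the inner medulla. Aqp7 takes up glycerol in the straight proximal tubule, Aqp6 lies in vesicles of intercalated cells, Aqp11 lies in the endoplasmic reticulum of proximal tubule cells, and Aqp9 is best known from liver and from leukocytes.

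The genes lie in close pairs on the mouse genome (GRCm38, GENCODE M21). Slc14a1 (18:78100091-78142119) and Slc14a2 (18:78146148-78596942) are neighbors on the minus strand with 4028 bases between them. Aqp2 (15:99579055-99584547) and Aqp6 (15:99601400-99605477) lie on the plus strand 16.9 kb apart, and Aqp7 (4:41033074-41048139) and Aqp3 (4:41092722-41098183) on the minus strand 44.6 kb apart. Aqp1 (6:55336432-55348555), Aqp4 (18:15389496-15410982), Aqp9 (9:71110659-71168682) and Aqp11 (7:97724006-97738289) stand alone. None of the 10 shares exon bases with another annotated gene. The deposited values are summed per gene name, so the UT-A isoforms of Slc14a2 were not separated.

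The TEC libraries held from 5397370 counts, in glutamine replicate 2, to 10223461, and the PMN libraries from 20225225 to 21878430. Levels are given as CPM, the usual library-size-scaled counts, with totals adjusted by edgeR's TMM factors. In the TECs the 10 proximal tubule markers summed to 2470 to 4914 CPM and the 5 principal cell markers found to 23.9 to 68.7 CPM. Endothelial markers were present in the TEC libraries at 319 to 539 CPM and hemoglobin-led red blood cell markers at 799.6 to 6683 CPM. The labels do not say that the libraries came from separate mice, and p-values measure only the spread between these libraries.

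Per kilobase of exon, Aqp1 was the most abundant of these genes in vehicle TECs. It stood at 906 ± 447 CPM per kb (SD, n = 3), above Aqp2 at 72.5 ± 26.6, which overlapped Aqp7 at 40.1 ± 9.19. Below them, Slc14a2 at 13.5 ± 9.87 overlapped Aqp3 at 12 ± 3.19. Slc14a1 at 3.78 ± 0.957, Aqp6 at 3.31 ± 1.98 and Aqp11 at 1.16 ± 0.259 CPM per kb formed a lower run in which neighbors overlapped. Aqp4 reached 0.192 ± 0.0727 CPM per kb, and Aqp9 was seen in a single library. Aqp1 lay above all other members in every vehicle library, and Aqp2 and Aqp7 lay above all those ranked under them. Below that, the Slc14a2 range of 2.2 to 20.5 CPM per kb covered both Aqp3 and Slc14a1. These values depend on the annotated exon lengths, since the lengths used by the authors are not part of the tables.

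**Figure D1:**
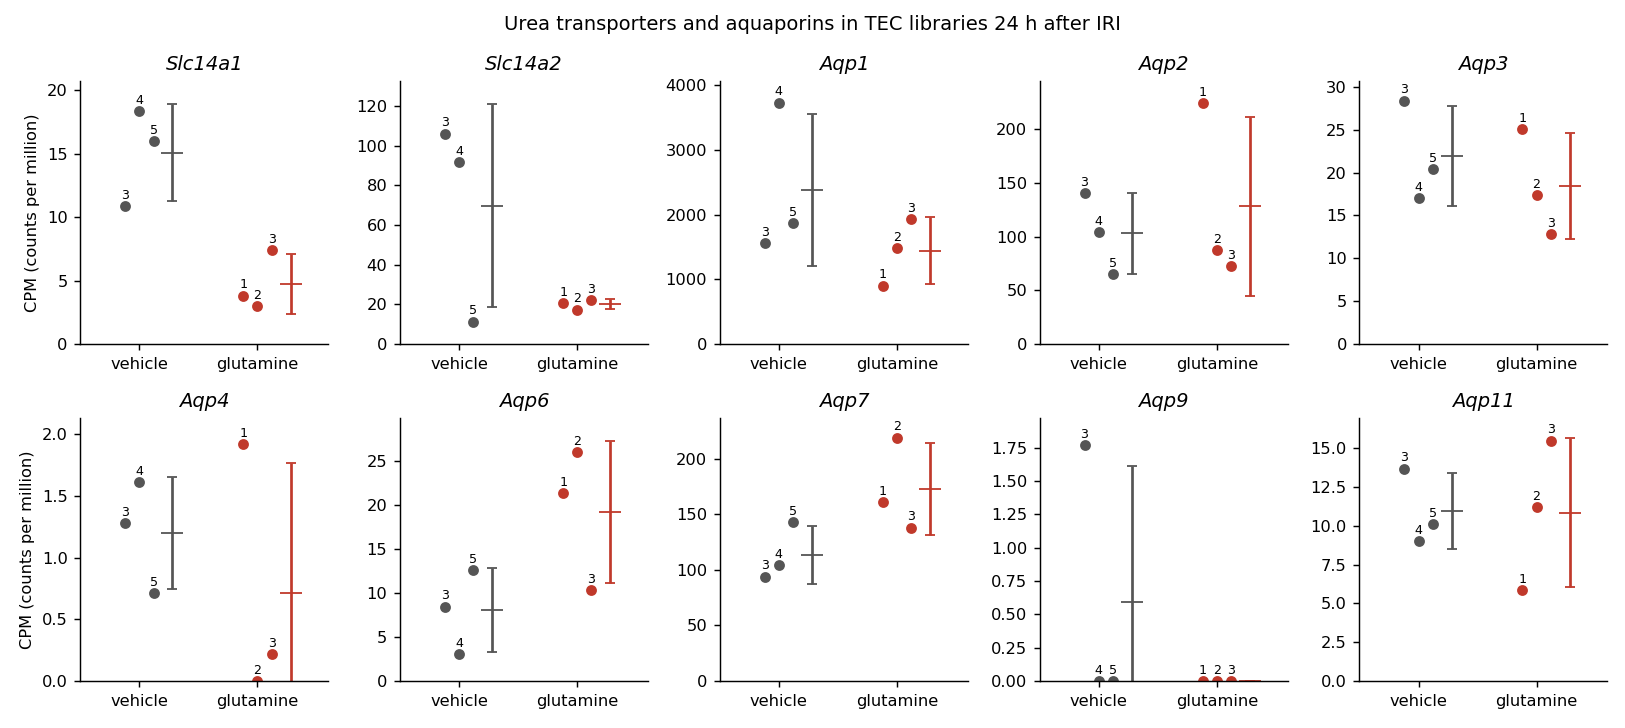
CPM of each of the 10 genes in the TEC libraries. Each point is a library with its replicate number, and the horizontal mark with bars is the mean ± SD of 3. Slc14a1 is the only gene whose vehicle and glutamine libraries do not overlap. Slc14a2 is high in vehicle replicates 3 and 4 and lowest of all in vehicle replicate 5.

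The first comparison asked whether glutamine changed these genes in TECs after IRI. By edgeR at an unadjusted p below 0.05, both urea transporters had lower means with glutamine and Aqp6 and Aqp7 had higher ones. The other aquaporins tested did not reach that level, and only Slc14a1 had groups that did not overlap. No member passed the test across all genes. With p-values adjusted by Benjamini and Hochberg's method, edgeR's quasi-likelihood test called 0 of 14734 genes at an adjusted p of 0.05 (0%), and 0 of the 9 members tested. The smallest adjusted p of any gene was 0.101, 1879 genes had an unadjusted p below 0.05, and limma-voom likewise called 0. DESeq2, the tool named in the study's methods, called 308 genes on the same counts, and 1 of the 8 members it gave an adjusted p, Slc14a1, among 0.561% of genes called lower and 1.81% called higher. At an unadjusted p below 0.05 edgeR placed 2 of 9 members lower, Slc14a1 and Slc14a2, against a background of 5.52% of all genes, and 2 of 9 higher, Aqp6 and Aqp7, against 7.23%. Among the 9 tested, 6 had a log2 fold change below 0 and the median was -0.25, beside 0.01 over all genes, of which 49.4% lay below 0. The members were chosen with earlier results of these data known, so these counts and shares only describe them.

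The vasa recta and red cell urea transporter Slc14a1 was low but separated in every library. Its counts were 111, 206 and 158 in vehicle replicates 3, 4 and 5, and 32, 15 and 68 in glutamine replicates 1, 2 and 3. On the CPM scale this was 10.9, 18.4 and 16 against 3.83, 3 and 7.43, so that the highest glutamine library lay below the lowest vehicle library. It was the 1 member of 9 whose glutamine libraries all lay lower, where 9.82% of all genes did so. No member had all glutamine libraries above the vehicle ones, where 9% of all genes did. The means were 15.1 ± 3.82 and 4.75 ± 2.35 CPM (SD, n = 3), 3.13-fold apart in the fit, with a log2 fold change of -1.65 ± 0.42 (SE). The adjusted p was 0.212 by edgeR's quasi-likelihood test and 0.0236 by DESeq2, and 0.01 by edgeR's quasi-likelihood test without the expression filter, so the call depended on the tool and on the filter. Leaving out each library in turn kept the log2 fold change between -2.13 and -1.42.

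Because UT-B marks the vasa recta and red blood cells, markers of those cells were read beside it. Of the 8 endothelial markers, 7 had a log2 fold change below 0, with a median of -0.24, and none reached an unadjusted p of 0.05. The summed endothelial level overlapped between the groups, from 319 to 539 CPM with vehicle and from 321 to 449 CPM with glutamine. Among the red blood cell markers all 4 tested had a log2 fold change above 0, the opposite direction to Slc14a1, and their sums ran from 799.6 to 4381 and from 966 to 6683 CPM. The part of these cells in the Slc14a1 difference was not tested further.

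The collecting duct and thin limb urea transporter Slc14a2 behaved differently between libraries of the vehicle group. Its counts were 1079, 1027 and 112 in vehicle replicates 3, 4 and 5, and 172, 87 and 203 in glutamine replicates 1, 2 and 3. In CPM, vehicle replicates 3 and 4 stood at 106 and 91.7, the 3 glutamine libraries between 17.4 and 22.2, and vehicle replicate 5 at 11.4, below every glutamine library. The group means were 69.7 ± 51 and 20.1 ± 2.43 CPM (SD, n = 3). The log2 fold change was -1.79 ± 0.59 (SE) with an adjusted p of 0.261 by edgeR's quasi-likelihood test and 0.286 by DESeq2. Without vehicle replicate 5 the log2 fold change was -2.30 and the adjusted p 0.0232 by edgeR's quasi-likelihood test, so that in the filtered fit this library decides the call. Without the expression filter Slc14a2 was called with all 6 libraries, at an adjusted p of 9.37e-08 by edgeR's quasi-likelihood test. The log2 fold change was then -1.82 with an SE of 0.28, against 0.59 in the filtered fit. The libraries were the same in both fits, so this p does not reflect a smaller spread between them. The difference was smaller by limma-voom, at -1.26 ± 0.76 (SE), and without vehicle replicate 3, at -1.36, and in neither did it reach an unadjusted p of 0.05. Within the vehicle group the highest library was 9.33-fold above the lowest, whereas Slc14a1 spanned 1.69-fold in the same libraries. Slc14a1 and Slc14a2 both stand on the study's own list of genes that changed in these TECs, so their direction is not independent evidence here.

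Among the water channels Aqp1 was the most abundant, with a lower mean in the glutamine libraries. It measured 1554, 3724 and 1865 CPM in vehicle replicates 3, 4 and 5, and 903, 1480 and 1933 CPM in glutamine replicates 1, 2 and 3. The groups overlapped, with vehicle replicate 4 far above the rest. The log2 fold change was -0.73 ± 0.35 (SE), adjusted p = 0.42 by edgeR's quasi-likelihood test, and shrank to -0.25 without vehicle replicate 4. The proximal tubule marker list, from the segment where Aqp1 is abundant, lay the other way: all 10 markers had a log2 fold change above 0, with a median of 0.58, 5 of them at an unadjusted p below 0.05, where 7.23% of all genes lay higher. None of the 10 passed an adjusted p of 0.05 by edgeR, and DESeq2 called Slc7a13 (adjusted p 0.00393).

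The collecting duct channels Aqp2, Aqp3 and Aqp4 did not differ beyond their spread. Aqp2 measured 140.3, 104 and 64.8 CPM in vehicle replicates 3, 4 and 5, and 224, 87.8 and 72.8 CPM in glutamine replicates 1, 2 and 3. Aqp3 measured 28.4, 17 and 20.4 CPM with vehicle and 25.1, 17.4 and 12.8 CPM with glutamine, in the same order of replicates. Vehicle replicate 3 and glutamine replicate 1 were the highest of their groups for both channels. The fitted log2 fold changes were 0.32 ± 0.41 for Aqp2 and -0.25 ± 0.32 for Aqp3 (SE), with adjusted p of 0.776 and 0.775 by edgeR's quasi-likelihood test. The Aqp2 value turned to -0.36 without glutamine replicate 1. The principal cell markers, summed over the list, overlapped as well, at 24.4 to 60.5 CPM with vehicle and 23.9 to 68.7 CPM with glutamine. Aqp4, the other basolateral channel of principal cells, gave only 13, 18 and 7 counts with vehicle and 16, 0 and 2 counts with glutamine. Its log2 fold change was -0.68 ± 1.11 (SE), with an adjusted p of 0.826 by edgeR's quasi-likelihood test. Leaving out each library in turn gave values from -3.09, without glutamine replicate 1, to -0.18, without glutamine replicate 2.

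Beside Aqp2, the members with a higher mean in the glutamine libraries were Aqp6 of intercalated cells and the glycerol channel Aqp7 of the straight proximal tubule, and neither passed the adjusted test. Aqp6 measured 8.45, 3.04 and 12.6 CPM in vehicle replicates 3, 4 and 5, and 21.4, 26 and 10.3 CPM in glutamine replicates 1, 2 and 3. Glutamine replicate 3 lay below vehicle replicate 5, and the groups therefore overlapped. The log2 fold change of Aqp6 was 1.26 ± 0.50 (SE), with an adjusted p of 0.34 by edgeR's quasi-likelihood test. Intercalated cell markers overlapped when summed, at 34.8 to 76.5 CPM with vehicle and 40.2 to 84.9 CPM with glutamine. Of the 5 tested, 3 had a log2 fold change above 0 and 2 below, with a median of 0.07. Only the proton pump subunit gene Atp6v1b1 had an unadjusted p below 0.05 by edgeR, at a log2 fold change of 1.45. The part of intercalated cells in the Aqp6 difference was not tested. Aqp7 measured 93.8, 104 and 143 CPM with vehicle and 161, 219 and 138 CPM with glutamine, again with the lowest glutamine library under the highest vehicle one. Its log2 fold change was 0.61 ± 0.24 (SE), adjusted p = 0.342 by edgeR's quasi-likelihood test, close in size to the median of 0.58 of the proximal tubule markers; the part of a higher proximal tubule share in this was not tested.

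The last members were flat or almost absent in TECs. Aqp11 averaged 10.9 ± 2.44 CPM in the vehicle libraries and 10.9 ± 4.83 CPM in the glutamine libraries (SD, n = 3), and its log2 fold change of -0.01 ± 0.39 (SE) changed sign under several settings. Aqp9 was listed with 18 counts in vehicle replicate 3 and with 0 in the other 5 libraries, and it did not pass the expression filter. A count of 0 in those libraries allows 0.268 to 0.6 CPM, taking 3 counts as the limit and covering counting error only.

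**Figure D2:**
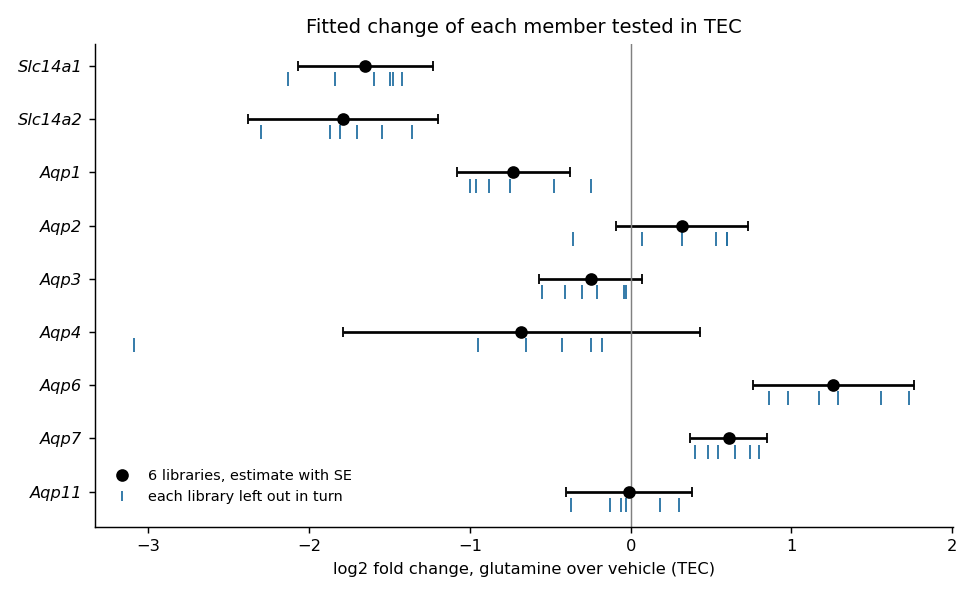
Log2 fold change of glutamine over vehicle for the 9 members tested in TECs, with black points for the fit of all 6 libraries, bars of 1 SE, and blue ticks for the fits that leave out each library in turn. The urea transporters lie left of 0 in every fit and Aqp6 and Aqp7 right of 0, while the ticks of Aqp2 and Aqp11 fall on both sides.

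Of the genomic neighbors, Slc14a1 and Slc14a2 both had log2 fold changes below 0 and Aqp2 and Aqp6 both had them above 0, while Aqp3 and Aqp7 lay on opposite sides. Over the 6 TEC libraries, and as a description of points that share libraries and depth and mix both treatments, so that opposite group means alone give a negative value, log2 CPM of Slc14a1 and Slc14a2 correlated at Pearson's r = 0.428. The pair Aqp2 and Aqp6 gave 0.145 and the pair Aqp3 and Aqp7 gave -0.268. Aqp2 and Aqp3, channels of the same cell, gave 0.687, and Aqp6 and Aqp7 gave 0.836. The lowest value was that of Aqp1 and Aqp6, at -0.861. Slc14a1 gave -0.839 with Aqp6 and -0.786 with Aqp7, and Slc14a2 gave -0.732 and -0.81. Among 10645 tested genes with a mean of at least 5 CPM, the closest in pattern to Slc14a2 were Ptpn6 at 0.999 and Calcrl at 0.994, and to Slc14a1 Stxbp3 and Pcbp2, both at 0.994. For the aquaporins the closest were Zfp422 at 0.986 and Hat1 at 0.982 to Aqp1, 9430062P05Rik at 0.988 and Edc3 at 0.984 to Aqp2, Rph3al at 0.982 and Hemk1 at 0.981 to Aqp3, and Slc6a18 at 0.987 and Dhx34 at 0.985 to Aqp4. Aqp6 was closest to Gm42427 at 0.998 and Gm13267 at 0.995, Aqp7 to Gm47621 at 0.994 and Myo6 at 0.993, and Aqp11 to Itga5 at 0.988 and Acox3 at 0.981. Each of the 9 members thus had a partner gene at 0.982 or above, whatever its own pattern.

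Related gene lists of the concentrating mechanism were read from the same TEC fit, in which 0 genes of any list passed an adjusted p of 0.05 by edgeR, whereas DESeq2 called Akr1b3 (adjusted p 0.00197) and Slc12a1 (0.00978). All counts that follow are by edgeR at an unadjusted p under 0.05, which 5.52% of all genes passed lower and 7.23% higher. Of the 13 salt transport genes that feed the medullary gradient, 12 had a log2 fold change above 0 (median 0.39) and 4 passed in that direction. Nephron segment markers, 4 of which are also salt transport genes counted here, lay the same way: 5 of 5 of the thick ascending limb list were above 0 with 2 passing, and 4 of 4 of the distal convoluted tubule list with 3 passing. Their part in the salt transport count was not tested. The salt transport genes included Slc12a1, the sodium-potassium-chloride cotransporter of the thick ascending limb, at 38.1, 44.8 and 37.9 CPM with vehicle and 52.8, 142 and 104 CPM with glutamine. Its log2 fold change was 1.30, that of the claudin Cldn19 was 0.91, and that of the sodium-proton exchanger Slc9a3 was 0.74. Slc12a1 therefore lay higher in every glutamine library, the direction opposite to the urea transporters.

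Of 15 tested genes of vasopressin signaling and Aqp2 trafficking, 13 lay below 0 with a median of -0.20, but only the recycling GTPase gene Rab11a passed lower, at -0.48, and the anchoring protein gene Akap13 passed higher, at 0.49. Of 11 genes of osmolyte handling and tonicity response, 2 passed lower and 0 higher. Akr1b3, encoding aldose reductase, which makes the osmolyte sorbitol, measured 63.1, 41 and 36.5 CPM with vehicle and 11, 8 and 22.4 CPM with glutamine, with no overlap and a log2 fold change of -1.75. The phospholipase gene Pla2g6 had -1.21. Nfat5, the transcription factor of the tonicity response, was at 0.35 and did not pass, and the list's median was 0.18. Among 5 tested genes of glycerol and urea metabolism, Gpd1, which makes glycerol phosphate, passed lower at -0.68, and the argininosuccinate enzymes Asl and Ass1 passed higher at 0.68 and 0.81. The 4 other urea and ammonia permeable transporters gave none in either direction (median 0.28), and the other aquaporins Mip, Aqp5, Aqp8 and Aqp12 summed to at most 0.8 CPM in any library and were not tested.

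**Figure D3:**
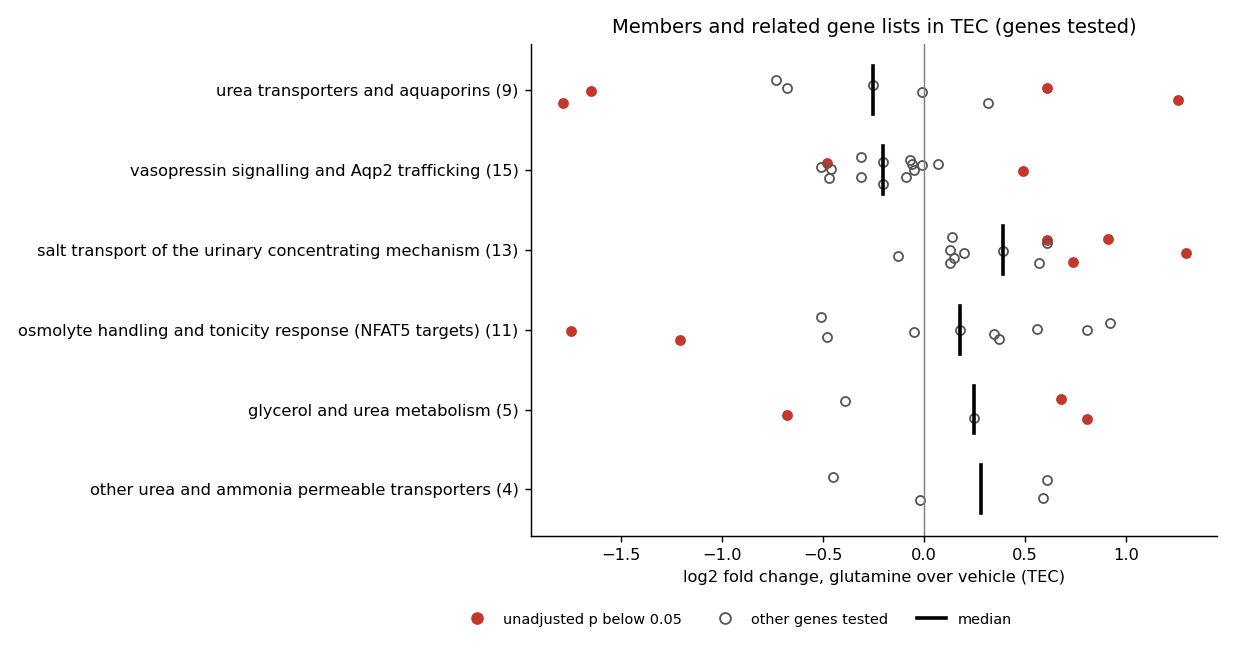
Log2 fold change of glutamine over vehicle in TECs for the 9 members tested and for the related lists, with 1 point per tested gene, filled red at an unadjusted p below 0.05, and a black bar at each median. Both urea transporters lie below -1.5, as does Akr1b3 of the osmolyte list, while salt transport genes lie mostly above 0.

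The second comparison read the same genes in blood neutrophils. Their libraries were led by neutrophil markers such as S100a8, at 18699 ± 6439 CPM in the vehicle libraries and 16410 ± 11089 CPM in the glutamine libraries (SD, n = 3). The same libraries held macrophage and dendritic cell markers, which summed to 6535 to 11411 CPM with vehicle and 6395 to 13115 CPM with glutamine, and the thick ascending limb gene Umod reached 1006 CPM in vehicle replicate 1. Slc14a1, Slc14a2, Aqp4, Aqp6 and Aqp11 had 0 counts in all 6 libraries, which allows 0.134 to 0.155 CPM, again taking 3 counts as the limit. Aqp2 and Aqp3 reached at most 9 and 11 counts. Only Aqp1, Aqp7 and Aqp9 passed the expression filter. By edgeR's quasi-likelihood test 0 of 10130 genes (0%) and 0 of these 3 passed an adjusted p of 0.05. At an unadjusted p below 0.05, 346 genes passed, 1.37% of all genes lower and 2.04% higher, and 0 of the 3 members in either direction. limma-voom called 0 genes and DESeq2 236, which made 1.11% lower and 1.38% higher, with 0 of the 3 members.

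Aqp9, the aquaglyceroporin known from leukocytes, was higher in every glutamine PMN library. Its counts were 1, 1 and 58 in vehicle replicates 1, 2 and 3, and 1626, 221 and 282 in glutamine replicates 1, 2 and 3. In CPM these were 0.0492, 0.0447 and 2.71 against 84, 10.2 and 13.9. It was the 1 member of 3 whose glutamine libraries all lay higher, where 5.87% of all genes did, and 0 members lay lower, where 4.64% of all genes did. Aqp9 met the expression filter through its glutamine libraries, since 2 vehicle libraries held 1 count each. The filter thus favored a gene high in that group, and nothing is drawn from this share. The fitted log2 fold change was 5.26 ± 2.34 (SE) and its adjusted p was 1 by edgeR's quasi-likelihood test and 0.107 by DESeq2. It ranged from 3.61 without glutamine replicate 1 to 9.40 without vehicle replicate 3, with 2 vehicle libraries at 1 count each. B cell markers separated the same groups, at 0.492 to 2.59 CPM summed over Cd79a, Cd79b and Ms4a1 with vehicle and 20.5 to 32.8 CPM with glutamine. This came from Cd79b, at 0 counts in every vehicle library, while Ms4a1 overlapped and Cd79a stood at 0 in the glutamine libraries. The general leukocyte gene Ptprc, encoding CD45, separated the groups too, at 311 to 558 CPM with vehicle and 739.7 to 1129 CPM with glutamine, as did the neutrophil gelatinase gene Mmp9, at 515 to 563 and 728 to 1318 CPM. Of the 8 neutrophil markers tested Mmp9 was the only one to do so; 5 lay above 0 and 3 below, with a median of 0.19, and the summed neutrophil list overlapped, at 29575 to 51203 CPM with vehicle and 21618 to 69963 CPM with glutamine. The part of these differences in that of Aqp9 was not tested.

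Aqp1 in PMNs rested on a single library. Its counts were 4, 1240 and 48 with vehicle and 3, 0 and 42 with glutamine. Vehicle replicate 2, at 55.5 CPM, also held endothelial markers at 1932 CPM against 2.66 to 90.2 in the other 5 libraries, and stromal markers at 102 CPM against at most 9.34, so that endothelium was not the only other cell type read there. Its endothelial receptor gene Kdr had 13580 counts, while the other libraries had 0. The log2 fold change of -4.69 ± 2.86 (SE), adjusted p = 1 by edgeR's quasi-likelihood test, became -0.72 without vehicle replicate 2 and -7.87 without glutamine replicate 3. Aqp7 was at 22, 22 and 25 counts with vehicle and 120, 24 and 17 counts with glutamine, so its log2 fold change of 1.33 ± 1.07 (SE) came from glutamine replicate 1 and was -0.17 without it. Of the 3 tested, 1 lay below 0 and the median was 1.33, beside 0.00 over all genes. Nothing is drawn from this, since Aqp9 met the filter through its glutamine libraries and the other members each rested on a single library.

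**Figure D4:**
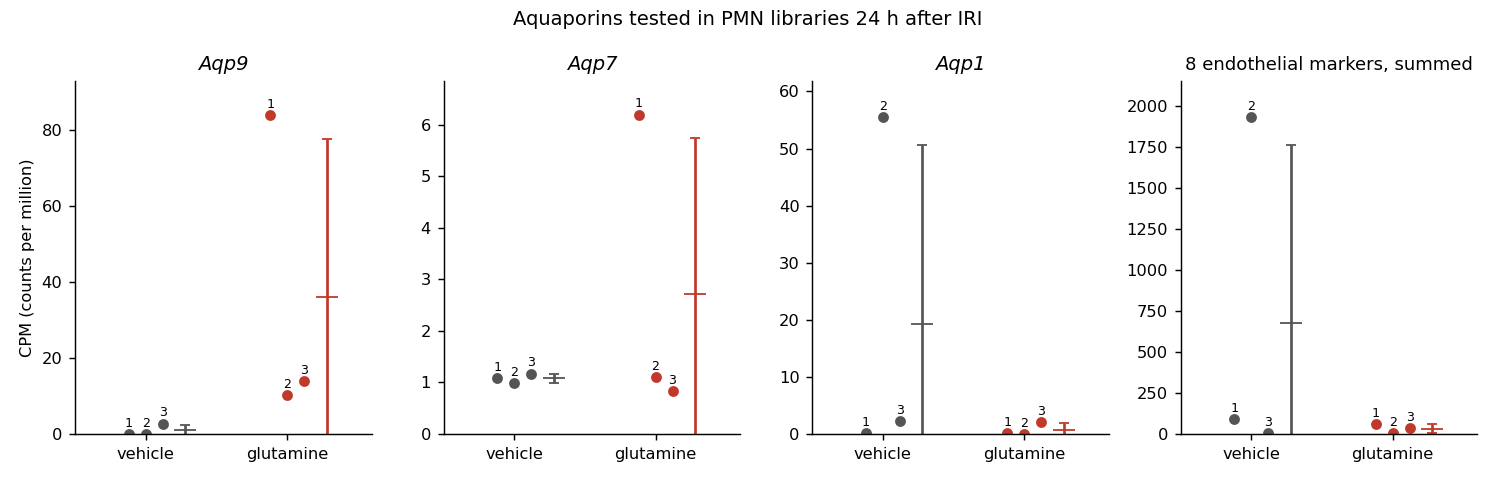
CPM of the 3 members tested in PMN libraries, and the summed CPM of 8 endothelial markers in the same libraries. Points are libraries with their replicate numbers, and marks with bars are the mean ± SD of 3. Aqp9 is higher in each glutamine library, and the high Aqp1 value and the high endothelial sum are the same library, vehicle replicate 2.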

How the data were processed

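The authors deposited estimated counts per gene name, not normalized, in a TEC and a PMN table. The submitters' processing notes name Salmon 1.0.0, Trim Galore 0.6.4 and genome build mm10, and the labels give single-end reads of 50 bases; the annotation is not given in the sources used here. The PMN table, which the authors also deposited as estimated counts, had been through a spreadsheet (other unit): 3.2% of its cells carried extra points and 0.391% had become dates, and these were turned back into numbers. Its 2 columns per library (Pearson's r 0.995 to 0.996 on log2(count + 1), against 0.771 to 0.824 between libraries) were averaged and counted as 1 replicate.

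Each cell type was fitted on its own with edgeR 4.0.16 in R 4.3.3 on rounded counts (filterByExpr, TMM, quasi-likelihood test, Benjamini-Hochberg adjustment over all tested genes, adjusted p of 0.05), and the scripts were tested on simulated data. CPM used TMM-scaled totals of all genes; correlations used log2 CPM with a prior count of 2. DESeq2 1.42.0 and limma-voom (limma 3.58.1) were alternatives. DESeq2 on all genes with a count, and library sizes over tested genes, were added after seeing the data.

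The members and lists were chosen with earlier results of these data known. All members were named; of each related list, genes with an unadjusted p below 0.05, at most the 3 of lowest p per direction; and the 2 genes most like each member. Nfat5, the marker genes given singly and the untested aquaporins were named outside that rule, after their values were seen. The authors' own fold changes and p-values were not used. Some marker genes are not reported here.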

Additional observations from a re-analysis of the deposited data

How the results depend on the processing

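In TECs the number of genes called was 0 with edgeR, 308 with DESeq2 on the filtered genes, 190 with DESeq2 on all genes with a count (added after seeing the data), 425 without the expression filter, and 0 to 36 when each library was left out. Members called were 0, and 1 with either DESeq2 fit (Slc14a1, adjusted p 0.0236 and 0.0438), 2 without the filter (Slc14a1 and Slc14a2), and 0 to 1 leaving out each library, the 1 being Slc14a2 without vehicle replicate 5. Adjusted p over all settings ranged from 0.01 to 0.51 for Slc14a1 and from 9.37e-08 to 0.571 for Slc14a2. The lowest value of each came from the edgeR fit without the expression filter. In PMNs genes called were 0 with edgeR, 236 with DESeq2 and 309 with DESeq2 on all genes with a count; no member was called under any setting run. The sign turned for Aqp11 in TECs (0.00 with DESeq2, RLE factors or at least 10 counts in every library, 0.05 with scaling that leaves out predicted genes, and -0.37 to 0.30 leaving out each library), for Aqp2 in TECs (-0.36 to 0.60) and for Aqp7 in PMNs (-0.17 to 1.75). Every other fold change of a member kept its direction: 122 TEC and 48 PMN values stayed on the same side of the threshold and 5 TEC values passed it. The cause was not tested.

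No paired analysis was possible because replicate number 3 is the only number found in both TEC groups, and the PMN labels carry no replicate numbers. The PMN replicate numbers used here were assigned in the order in which the samples of each group are listed. With 3 libraries a group, the tests cover only the spread between these libraries, and low counts limit Aqp4 and Aqp9 in TECs.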
